A study of Nothobranchius furzeri with 228 samples.

Results

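Rare bursts of expression were described for genes that were almost silent in most fin clips and high in a few. CPM, the count of a gene scaled to a fixed total count per library, was formed from all counts of the library. Of 26739 genes in the table, 12515 had a median under 2 CPM over all libraries, and the 150 of these with the highest CPM in any single library were taken as members. The members were therefore chosen by their highest value and their median, and these values are given as a description. The libraries came from 114 male *Nothobranchius furzeri*, a short-lived African killifish, of the strain MZM-0410. A clip was cut from every one of them at 10 and again at 20 weeks under the condition that the labels call normal aging, which gave 114 libraries at each age with no treatment and no genetic change between them. Fish are named FC with their number.

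Most genes that are silent in a tissue stay silent because the cell type that uses them is absent or because the signal that switches them on is missing. A fin holds epidermis, bony rays, vessels, nerves and pigment cells, while skeletal muscle moves it from its base. Genes of innate immunity, and above all those switched on by interferon, the signal that infected cells send out against viruses, are known to go from low to very high levels within hours. In bulk tissue such as a fin clip, a change in the number of cells of a type and a change in RNA per cell cannot be told apart.

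Peaks, the highest CPM of each member, ran from 18.2 to 440.1 CPM with a median of 28.7 CPM, while the medians of the members over the libraries ran from 0 to 2.0 CPM. The peak was at least 100 CPM in 22 members, and the lowest peak rested on 346 counts. In 76 members the peak was at least 2 times the next library, and in 17 at least 5 times. At the edge of the choice, Nfu_g_1_006079 and Nfu_g_1_006966 peaked at 18.3 and 18.2 CPM and were members, and Nfu_g_1_019176 peaked at 18.05 CPM and was not. Nfu_g_1_013596 peaked at 27 CPM and was left out by its median of 2.01 CPM. The study's tables gave a gene symbol to 23 of the 150 members, so most are known here by identifier alone.

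The total count of a library was 24007900 ± 3921300 (SD) over the 114 clips at 10 weeks, 23438100 ± 3797300 (SD) over those at 20 weeks, and anywhere from 15854100 to 37764100 in a single library. The 10 libraries with 3 or more peaks had totals between 18747362 and 28352815. All members together held a median of 0.0213% and at most 0.320% of the counts of a library. For 11 fish (FC18, FC43, FC95, FC96, FC97, FC98, FC100, FC101, FC102, FC103 and FC104) the clips labelled with the same number did not match each other in genes that keep their level within a fish, so statements on the other clip are also given without them. The lowest correlation of a matched pair over such genes was 0.55 and the median was 0.88.

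Peaks were gathered in very few libraries. FC74 at 10 weeks held the peak of 54 members, FC40 at 10 weeks that of 29 and FC61 at 20 weeks that of 13, so that these 3 libraries of 228 held 96 of 150 peaks. The other peaks were spread over the rest of the 34 libraries of 30 fish that held any. FC76 held 11 peaks over both clips, and FC58 at 20 weeks held 5. Of all peaks, 98 lay at 10 weeks and 52 at 20 weeks, a share of 34.7% at 20 weeks, where 52% of the 4052 genes with a median under 2 CPM and a peak of at least 1 CPM had theirs. This low share came with FC74 and FC40, whose clips at 10 weeks held 83 peaks between them.

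A burst was counted wherever a member reached 20 CPM. There were 370 bursts, 172 at 10 weeks and 198 at 20 weeks, in 119 libraries of 84 fish. The 10-week bursts lay in 46 libraries and the 20-week bursts in 73, so that more clips showed a burst at 20 weeks. Without the 4 fish that held 10 or more peaks, 223 bursts were left and 63.2% of them were at 20 weeks. In 70 members a single library reached 20 CPM, in 39 members 2 to 5 libraries did, in 21 members more than 5 did and in 20 members none did. In fish 1 to 50 the share of libraries with a burst was 47.9% at 10 weeks and 60.4% at 20 weeks, in fish 51 to 84 it was 32.4% and 70.6%, and in fish with higher numbers it was 37.5% and 62.5%. The higher share at 20 weeks was thus seen in each of the 3 runs of animal numbers, while 95 of 150 peaks lay in fish 51 to 84 and 11 in fish with higher numbers. With a burst set at 50 CPM there were 80 bursts, 47.5% of them at 20 weeks. The share of libraries with a burst was not taken over other genes, so it is no result about the members.

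**Figure D1:**
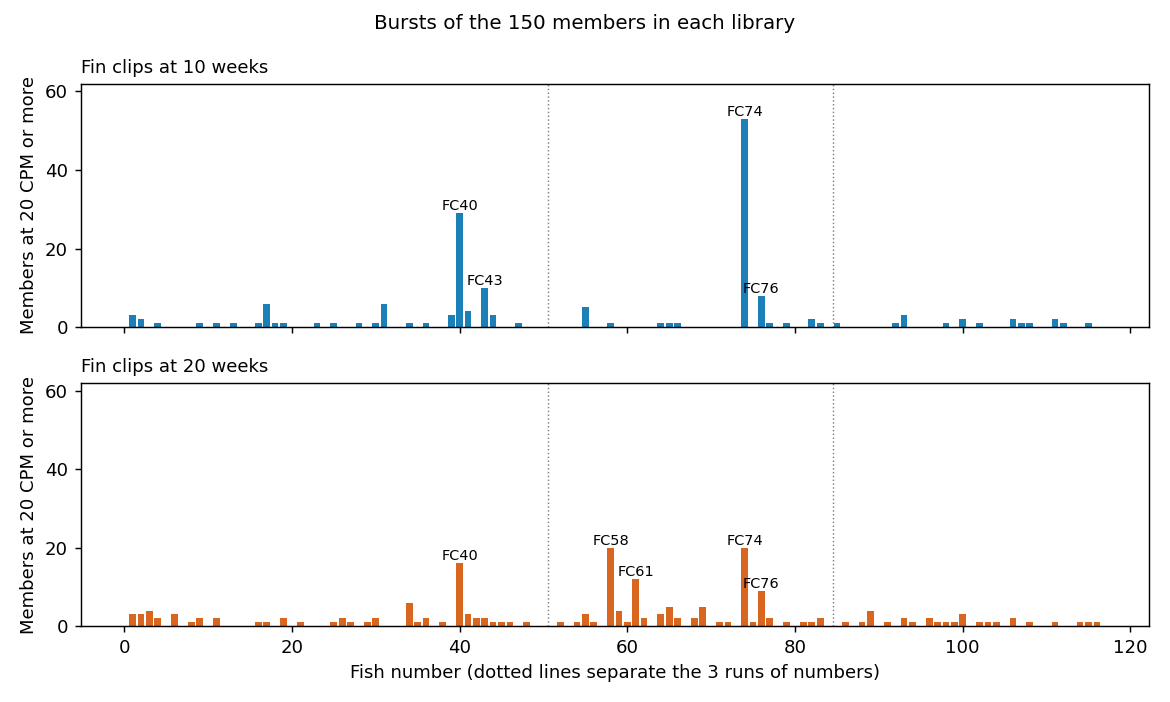
Number of members at 20 CPM or more (vertical axis) in each fin clip, by fish number (horizontal axis), with clips at 10 weeks above and at 20 weeks below; each bar is 1 library and names mark libraries with 8 or more. FC74 at 10 weeks reached 53 members and FC40 at 10 weeks 29, while most libraries had none or 1.

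Members that burst in the same libraries were grouped by the correlation of their log2(CPM + 1) over all libraries, with a mean correlation of at least 0.5 between members joined. The grouping uses the same values that chose the members and carries no test. It gave 51 groups, of which 2 held 5 or more members (56 and 26), 12 held 2 to 4, and 37 members stood alone. With a cut at 0.7 the 2 largest groups held 26 and 22 members, so the group of 56 depends on the cut. Within that group the correlation between 2 members ran from 0.218 to 0.970, with a mean of 0.668.

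The larger group of 56 members burst in FC74. Of its peaks, 50 lay in FC74 at 10 weeks, 4 in FC58 at 20 weeks, 1 in FC74 at 20 weeks and 1 in FC89 at 20 weeks. The median of the 56 members was 27.3 CPM in FC74 at 10 weeks, 14.8 CPM in FC74 at 20 weeks, 15.2 CPM in FC58 at 20 weeks and 12.7 CPM in FC40 at 20 weeks. It was 7.48 CPM in FC43 at 10 weeks, 7.01 CPM in FC89 at 20 weeks and 4.81 CPM in FC59 at 20 weeks. Over all libraries the median of the members had a lowest value of 0.389, a median of 0.825 and a highest value of 27.3 CPM at 10 weeks, and of 0.278, 0.911 and 15.2 CPM at 20 weeks. The ages overlapped almost completely, and a few libraries of either age stood far above the rest. All 56 members had FC74 at 10 weeks among their 5 highest libraries, 52 had FC74 at 20 weeks, 51 had FC58 at 20 weeks and 43 had FC40 at 20 weeks.

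Within this group Nfu_g_1_010492 reached the highest value. Its CPM was 357.8 in FC74 at 10 weeks, 145.9 in FC74 at 20 weeks, 68.2 in FC40 at 20 weeks, 59.1 in FC58 at 20 weeks and 57.7 in FC89 at 20 weeks, against a median of 0.905. Nfu_g_1_017037 had 138.9 CPM in FC74 at 10 weeks, 51.1 CPM in FC74 at 20 weeks and 47.9 CPM in FC40 at 20 weeks, against a median of 0.199 CPM. Both thus followed the same order of libraries. Nfu_g_1_020658 was almost equal at the clips of FC74, with 122.6 and 121.1 CPM in age order, and had 83.7 CPM in FC40 at 20 weeks. Nfu_g_1_025443 had 132.2 CPM and 67.5 CPM at the 2 clips of FC74. Nfu_g_1_016280 had 135.3 CPM and 60.8 CPM there and burst in 9 libraries, 8 of them at 20 weeks.

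A second order of libraries ran through the group. Nfu_g_1_011083 had 140.0 CPM in FC74 at 10 weeks, then 28.3 CPM in FC58 at 20 weeks, 28.2 CPM in FC43 at 10 weeks and 27.9 CPM in FC6 at 20 weeks, and 19.9 CPM in FC74 at 20 weeks. Nfu_g_1_014174 went through the same libraries with 133.5, 38.8, 38 and 26.5 CPM, and had 32.2 CPM in FC74 at 20 weeks. These members differ from the ones above in that FC6 and FC43 were among their highest libraries. The only member of the group with a symbol was UPP1, uridine phosphorylase, an enzyme that breaks down uridine. It reached 18.5 CPM in FC74 at 10 weeks, 11.6 CPM in FC40 at 20 weeks and 8.35 CPM in FC74 at 20 weeks, against medians of 1.05 and 1.32 CPM at the 2 ages.

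The same libraries stood out in interferon-stimulated genes. A list of 59 symbols, drawn up with the values of the members known, matched 28 genes, none of them a member. Their summed level ran from 927 to 10460 CPM at 10 weeks with a median of 1457 CPM, and from 823 to 7453 CPM at 20 weeks with a median of 1499 CPM. The highest sums of all 228 libraries were 10460 CPM in FC74 at 10 weeks, 7453 CPM in FC40 at 20 weeks, 7308 CPM in FC74 at 20 weeks and 5436 CPM in FC58 at 20 weeks, which are the same 4 libraries that led the 56 members. Below them the order parted in places. FC2 at 20 weeks came next with 4085 CPM and FC61 at 10 weeks had 3907 CPM. The median of the 56 members was only 1.14 and 1.29 CPM in these clips. FC43 at 10 weeks and FC89 and FC59 at 20 weeks came next in the 56 members. Their interferon sums were 3641, 3541 and 3964 CPM, ranks 8, 9 and 6 of all libraries. In FC74 at 10 weeks 26 of the 28 genes were over 2 times their own median. RSAD2, which makes an antiviral nucleotide, had 206 CPM there and 169 CPM at the other clip against a median of 5.73 CPM. NLRC5, the activator of major histocompatibility class I genes, had 111.4 CPM and 42.4 CPM against a median of 2.71 CPM, and the RNA sensor DHX58 had 769 CPM and 515 CPM against 26.2 CPM. How far the 56 members depend on interferon was not tested.

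**Figure D2:**
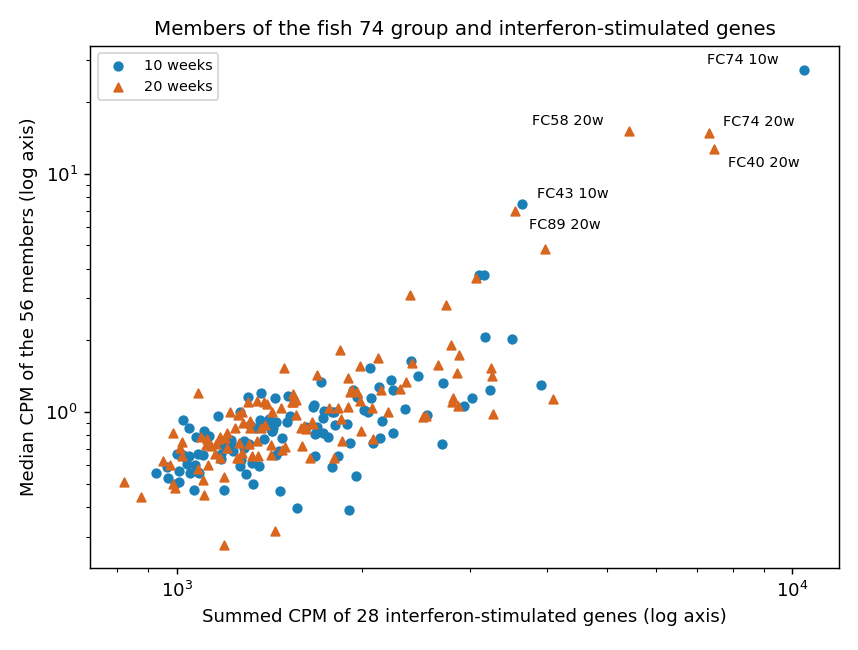
Median CPM of the 56 members (vertical, log axis) against the summed CPM of 28 interferon-stimulated genes (horizontal, log axis); each point is 1 library, circles at 10 weeks and triangles at 20 weeks. FC74 at 10 weeks is highest on both axes (27.3 CPM and 10460 CPM), and the members were chosen for their high values, so the plot is a description.

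Other lists moved with some of these libraries. Complement genes, which code for serum proteins that tag and lyse microbes (14 genes, 1 of them a member), had their highest sums in FC58 at 20 weeks (5145 CPM), FC74 at 20 weeks (3796 CPM), FC74 at 10 weeks (3300 CPM) and FC40 at 20 weeks (2481 CPM), against medians of 260 and 391 CPM at the 2 ages. A single complement gene had a median of 233 CPM. Gene by gene, 8, 9, 6 and 8 of the 14 were over 2 times their own median in these libraries in that order. The immune cell list matched only 1 gene, a coronin, and its highest values were 252.6 CPM in FC74 at 10 weeks, 197 CPM in FC58 at 20 weeks and 160 CPM in FC40 at 20 weeks against a median of 48.9 CPM. The list of dividing cells (7 genes) was highest in FC74 at 10 weeks with 1035 CPM, where all 7 genes were over 2 times their median, while FC40 at 20 weeks had 298 CPM. The epidermis list (6 genes) had 80892 CPM in FC74 at 10 weeks, the lowest sum of any clip at that age, where the median was 145156 CPM. A single keratin gene, KRT76, holds most of this sum, with 78059 CPM there against a median of 139062 CPM, and 3 of the 6 genes were above their own median in that clip. The part of other cells or of dividing cells in these bursts was not tested.

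**Figure D3:**
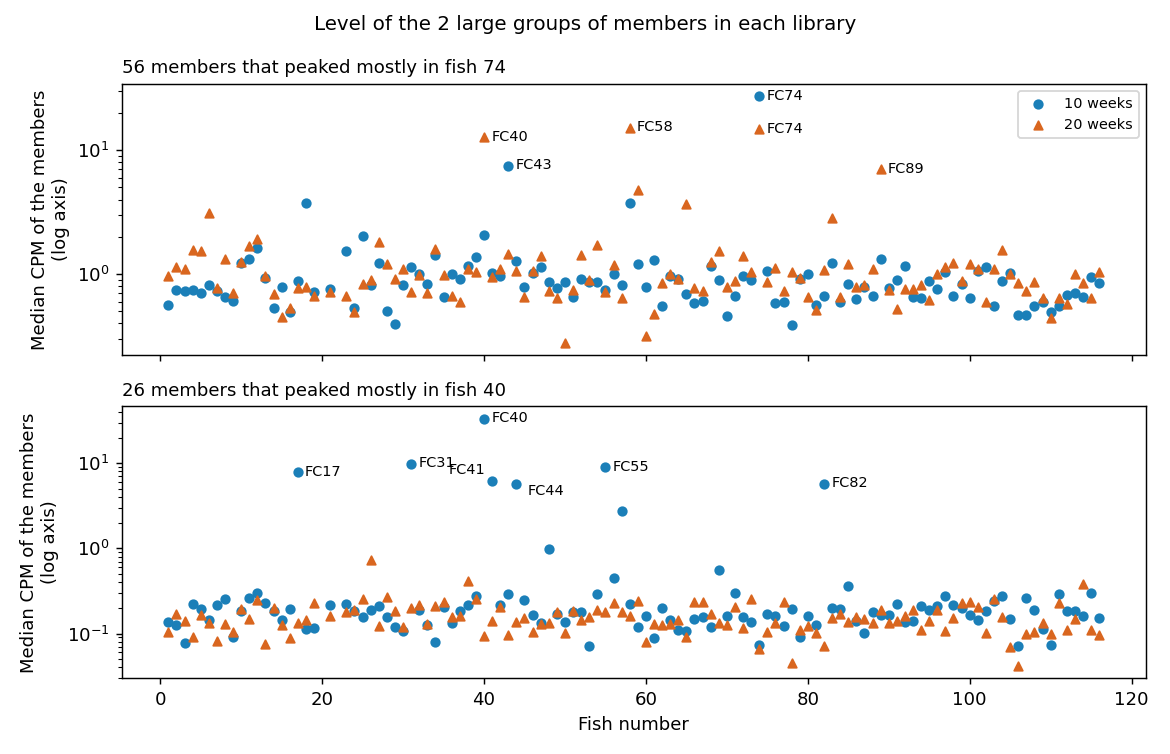
Median CPM (log axis) of the 56 members that peaked mostly in fish 74 (above) and of the 26 that peaked mostly in fish 40 (below), by fish number; each point is 1 library, circles at 10 weeks and triangles at 20 weeks, and names mark libraries at 5 CPM or more. High libraries are of both ages above (2 at 10 weeks and 4 at 20 weeks) and only at 10 weeks below (7 and 0).

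The second group of 26 members burst in FC40 at 10 weeks and held genes of skeletal muscle. Its 4 members with a symbol were MYLPF, the fast-muscle regulatory myosin light chain, TNNI2, the fast-muscle troponin that blocks contraction at rest, ACTN2, the actin crosslinker of the sarcomere's Z-disc, and AMPD1, the AMP deaminase of muscle. Of its 26 peaks, 25 lay in FC40 at 10 weeks and that of Nfu_g_1_008222 lay in FC31 at 10 weeks. MYLPF (Nfu_g_1_007569) had 440.1 CPM in FC40, 79.7 CPM in FC17, 73.9 CPM in FC55, 70.3 CPM in FC31, 38.8 CPM in FC44, 36.9 CPM in FC41, 34.6 CPM in FC82 and 18.2 CPM in FC57, all at 10 weeks. Its next value was 2.88 CPM in FC26 at 20 weeks, so there was a clear gap below these 8 libraries. The median of MYLPF was 0.0918 and 0.0471 CPM at the 2 ages, and 56 libraries had no count.

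In 23 of the 26 members the 4 highest libraries were all among these 8. The other 3 also had libraries outside them, and Nfu_g_1_019276, with 43.9 CPM in FC40, then had 16.1 CPM in FC102, 12.7 CPM in FC94 and 9.48 CPM in FC100, all at 20 weeks. Nfu_g_1_019445 had 337.7 CPM in FC40, 49.5 CPM in FC17 and 42 CPM in FC55. Nfu_g_1_022849 had 332.5 CPM in FC40, 59.3 CPM in FC17 and 56.3 CPM in FC31, and Nfu_g_1_003723 had 255.9, 39.8 and 36.7 CPM in the same 3 fish. FC40 was thus several times above the fish that came next. TNNI2 reached 93 CPM in FC40, 13.2 CPM in FC31 and 11 CPM in FC55, and ACTN2 86.8, 19.6 and 14.1 CPM in the same fish. ACTN2 differed in its base level, with medians of 1.89 and 1.87 CPM at the 2 ages. Nfu_g_1_014209 and Nfu_g_1_016401 reached 128.8 and 126.7 CPM in FC40, and Nfu_g_1_023319, with no count in 192 libraries, reached 110.3 CPM there. AMPD1 reached 24.3 CPM in FC40 and 6.26 CPM in FC17.

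The median of the 26 members was 33.3 CPM in FC40, 9.90 CPM in FC31, 8.98 CPM in FC55, 7.79 CPM in FC17, 6.17 CPM in FC41, 5.74 CPM in FC82, 5.68 CPM in FC44 and 2.78 CPM in FC57. These were the 8 libraries at 2 CPM or more, all at 10 weeks, and no clip at 20 weeks reached that level. At 20 weeks the lowest value of this median was 0.0417, the median 0.146 and the highest 0.730 CPM, in FC26. The 8 fish belong to the runs 1 to 50 and 51 to 84, and none has a number over 84.

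Muscle genes were also checked as a list. Of 36 symbols 11 were matched, to 14 genes, of which 4 were members, and the summed level ran from 279 to 1015 CPM at 10 weeks and from 254 to 477 CPM at 20 weeks. FC40 at 10 weeks had the highest sum with 1015 CPM, then FC31 with 586 CPM and FC17 with 536 CPM. The median at 10 weeks was 374 CPM. FC74 at 10 weeks, which was not high in the muscle group, came next with 512 CPM. In other libraries of the group the sum was nearer the median, with 492 CPM in FC82, 432 CPM in FC55, 398 CPM in FC41 and 369 CPM in FC44. In FC40 none of the 14 genes was at 0. The excess of this sum in FC40 over the median lay in the 4 members, whose peaks there chose them. Gene by gene, 10 of the 14 genes, members included, were above their own median there and 7 over 2 times it. Outside the members a TPM1 copy (Nfu_g_1_003866) had 22 CPM against a median of 7.01 CPM, while MYOT had 30.8 CPM against 25.2 CPM. The epidermis list had 147979 CPM in FC40 at 10 weeks, close to the median of its age. The amount of muscle in the clips was not measured.

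Muscle genes outside the group had other libraries beside FC40. MYL1, an essential myosin light chain, peaked at 38.9 CPM in FC40 at 10 weeks and then had 10.8 CPM in FC80 and 10.2 CPM in FC50, both at 20 weeks. KLHL31, a Kelch-like protein of muscle, had 19.8 CPM in FC40 at 10 weeks and 5.13 CPM in FC61 at 20 weeks. MYBPH, a myosin-binding protein, had its peak elsewhere, with 93.3 CPM in FC61 at 20 weeks and 18 CPM in FC40 at 10 weeks. In FC61 at 20 weeks MYLPF and TNNI2 had no count and the muscle list summed to 399 CPM, so MYBPH was high there without them. A GAPDH copy, an enzyme of glycolysis, had 47.1 CPM in FC40 at 10 weeks and 16.5 CPM in FC86 at 10 weeks.

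FC61 at 20 weeks held 13 peaks, and none of these members was in either large group. SYBU, which links vesicles to kinesin motors in neurons, had 46.2 CPM there and 4.85 CPM in FC34 at 20 weeks. Nfu_g_1_019860 had 19.4 CPM there and at most 0.222 CPM in any other library. Nfu_g_1_018770 had 84.3 CPM there and 35.4 CPM in FC34 at 20 weeks, Nfu_g_1_013753 39.1 CPM there and 27 CPM in FC72 at 20 weeks, and CDHR2, a cadherin of intestinal microvilli, 20.7 CPM there and 4.02 CPM in FC43 at 10 weeks. The remaining peak of this fish was at 10 weeks, in ZBTB16, a transcription factor known to be induced by glucocorticoids, with 18.7 CPM, and ZBTB16 had 13.2 CPM in FC34 at 20 weeks. FC61 and FC34 were therefore high in several members together.

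Glucocorticoid-responsive genes were high in both fish. This list, drawn up with the values known, matched 28 genes, 1 of them a member, and summed to medians of 882 and 1103 CPM at the 2 ages. The sum was 3280 CPM in FC34 at 20 weeks, the highest of all libraries. It was 2647 CPM in FC61 at 10 weeks, 2173 CPM in FC61 at 20 weeks and 2166 CPM in FC69 at 20 weeks. These were ranks 3, 6 and 7 of all libraries. FKBP5, the cochaperone that damps the glucocorticoid receptor, had 802 CPM in FC61 at 10 weeks, 303 CPM in FC61 at 20 weeks and 639 CPM in FC34 at 20 weeks, against a median of 21.9 CPM. The epidermis list had 63347 CPM in FC61 at 20 weeks and 74318 CPM in FC34 at 20 weeks, both low for that age, whose median was 137717 CPM, but the sum is again mostly KRT76 and 3 and 4 of the 6 genes were above their own median in these clips. The acute stress list (10 genes) had high sums in the same libraries. The clock genes (19 genes, a list drawn up with the values known) were high in those at 20 weeks. Acute stress genes summed to 3534 CPM in FC61 at 20 weeks, the highest of all libraries. They summed to 3134 CPM in FC34 at 20 weeks and 2941 CPM in FC61 at 10 weeks, ranks 3 and 4 of all libraries. The medians were 1899 and 2159 CPM at the 2 ages. A single gene of this list had a median of 1449 CPM. Gene by gene, 3, 3 and 4 of the 10 were over 2 times their own median in these libraries in that order. The median log2 ratio to the gene's own median, with 1 CPM added to both, was 0.04, 0.48 and 0.54. Clock genes summed to 1593 CPM in FC61, 1579 CPM in FC69 and 1506 CPM in FC34, all at 20 weeks, against medians of 866 and 883 CPM. These were ranks 3, 4 and 10 of all libraries. The highest clock sums were 1597 CPM at 10 weeks and 1674 CPM at 20 weeks, in other libraries. In FC61 at 10 weeks the clock genes summed to 868 CPM, near the median of that age. The part of stress hormones or of the clock in these bursts was not tested.

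Both globin members burst in FC34 at 20 weeks. The embryonic beta-type gene hbbe1.1 had 28.7 CPM there and 5.14 CPM in FC106 at 10 weeks, and the embryonic alpha-type gene hbae1 had 27 CPM there and 6.74 CPM in FC87 at 10 weeks. At the 10-week clip of FC34 they had 0.750 CPM and 0 CPM. The red blood cell list, with 8 genes of which 2 were members and 1 was at 0 in all libraries, summed to 146 CPM in FC34 at 20 weeks, below the highest sum at that age of 194 CPM. Gene by gene the list stood out more, since 5 of the 8 genes were over 2 times their own median there. The median over the 8 genes of the log2 ratio to the gene's own median, with 1 CPM added to both, was 2.13, the highest of any library. By its sum FC34 at 20 weeks ranked 26 of all libraries. Both globin members enter this count and this ratio with the values that chose them, so neither is independent support. The most abundant globin of the list, Nfu_g_1_007641, had 64.9 CPM there against a median of 37.4 CPM. Globin genes are close copies, and the counting could have split reads between them.

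C3, the central complement protein that coats microbes, was grouped with Nfu_g_1_006434 and Nfu_g_1_006079, though the 3 genes peaked in different libraries. This C3 copy (Nfu_g_1_007235) had 107.5 CPM in FC74, 62.4 CPM in FC81 and 37.2 CPM in FC79, all at 20 weeks. Its bursts numbered 10, of which 9 were at 20 weeks. Nfu_g_1_006434 had 236.2 CPM in FC69, 86.9 CPM in FC74 and 75.5 CPM in FC34, all at 20 weeks, and none of its 7 bursts was at 10 weeks. Nfu_g_1_006079 had 18.3 CPM in FC55, 17.8 CPM in FC69 and 16.2 CPM in FC62, again at 20 weeks, and thus never reached the level of a burst. In FC69 at 20 weeks Nfu_g_1_023493 also peaked, with 117.6 CPM, and then had 36.6 CPM in FC19 at 20 weeks.

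FC76, like FC74, was high at both clips. Nfu_g_1_008965 had 59 CPM in FC76 at 20 weeks and 53.5 CPM at 10 weeks, Nfu_g_1_011475 22.5 CPM and 26.5 CPM in that order, and CPNE4, a calcium-dependent membrane-binding copine, 20.7 CPM at 20 weeks and 13.7 CPM at 10 weeks. The next fish had at most 1.3 CPM of Nfu_g_1_011475 and 3.19 CPM of CPNE4, so both were high in FC76 alone. Nfu_g_1_020491 was less even, with 176.8 CPM in FC76 at 10 weeks and 37.9 CPM at 20 weeks, and it also burst in FC1 (72.3 CPM and 48 CPM) and FC4 (41.8 CPM and 47.7 CPM). Pteridine pigment genes, drawn up as a list with the values known and matched to 3 genes, summed to 1236 CPM in FC76 at 10 weeks and 297 CPM at 20 weeks, against medians of 226 CPM and 162 CPM. XDH, xanthine dehydrogenase, was among them with 312 CPM and 128 CPM against 37.7 CPM. Of the other members that peaked in this fish, Nfu_g_1_001735 had 33.1 CPM at 20 weeks and 21.3 CPM at 10 weeks. At 10 and 20 weeks in that order, Nfu_g_1_001208 had 23.8 and 21.2 CPM, Nfu_g_1_008005 21.3 and 13 CPM and Nfu_g_1_018420 18.4 and 14 CPM. Less even were Nfu_g_1_018537 with 25.8 and 10.1 CPM, Nfu_g_1_013600 with 19.3 and 6.08 CPM and Nfu_g_1_012743 with 8.02 and 20.4 CPM, the last being the member of this fish whose other clip was not among the 5 highest of its age. Nfu_g_1_008342, which varied with Nfu_g_1_020491, had 27.1 CPM in FC43 at 20 weeks and 25.1 CPM in FC1 at that age. Some markers of nerve were high at 10 weeks too, where a copy of MBP, a protein of the myelin sheath, had 37.1 CPM against a median of 9.83 CPM (Nfu_g_1_012286) and the other copy 18.5 CPM against 10.9 CPM (Nfu_g_1_016795). Of the 12 genes of the list of neurons and myelin, 7 were above their own median in that clip and 5 over 2 times it, while 2 had no count. The part of pigment cells and of nerve was not tested.

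Recurrence was asked for every member, as the place of the peak fish's other clip among the 114 libraries of that other age. This uses values of a library that did not set the peak, although it did enter the median. The other clip was among the 5 highest in 80 of 150 members, 53.3%, was the highest in 42 and was among the 10 highest in 92. Over all 18276 genes with a peak of at least 1 CPM the other clip was among the 5 highest in 21.4%, the highest in 7.82% and among the 10 highest in 29.8%, and over those with a median under 2 CPM among the 5 highest in 29%. Members share few fish, so their number is not a number of independent cases. FC74 gave 55 of its 57 peaks, FC76 10 of 11, FC61 3 of 14 and FC40 0 of 29. Outside these 4 fish 12 of 39 members were recurrent, 30.8%. The 29% over genes with a median under 2 CPM still holds peaks in these 4 fish and peaks down to 1 CPM. The 2 shares are therefore not of like sets. Without the 11 unmatched fish 80 of 144 members were recurrent.

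**Figure D4:**
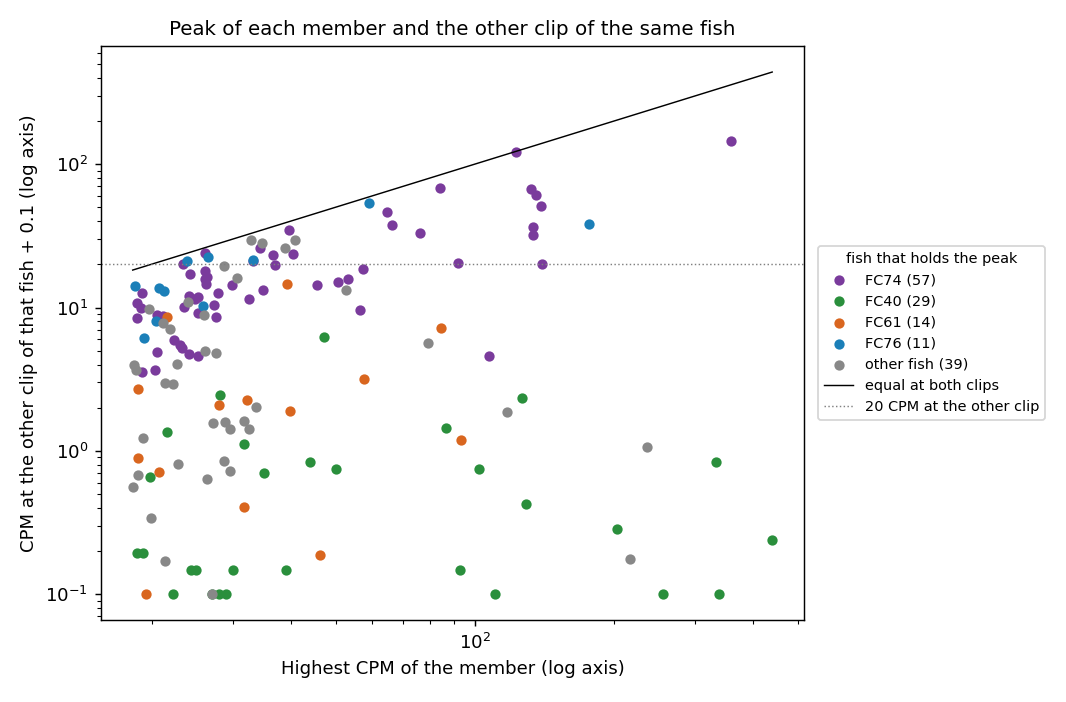
Highest CPM of each member (horizontal, log axis) against the CPM at the other clip of the same fish, with 0.1 added (vertical, log axis); each point is 1 of 150 members, coloured by the fish that held the peak. Members of FC74 lie near the line of equal values or a few times below it (55 of 57 recurrent), and those of FC40 lie far below it (0 of 29).

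The 2 largest sets of peaks therefore differed in recurrence. For FC74 the other clip had a median of 14.5 CPM over its 57 members and for FC40 a median of 0.139 CPM over its 29. The 20-week clip of FC40 was itself among the highest libraries, but for the members of the larger group, whose median was 12.7 CPM in it. Peaks at 10 weeks were followed by a high value at 20 weeks in 63 of 98 members, and peaks at 20 weeks were preceded by a high value at 10 weeks in 17 of 52. This order rested on FC74, since without it, left out after its values were seen, the counts were 9 of 44 (20.5%) for peaks at 10 weeks and 16 of 49 (32.7%) for peaks at 20 weeks. In 27 members the other clip of the peak fish reached 20 CPM too. The other fish with more than 3 peaks were FC58 with 4 of 5 recurrent and FC96, an unmatched fish, with 0 of 4.

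Some members burst at both clips of several fish. Counting each fish in which a member reached 20 CPM, there were 293 such cases in the matched fish, and 50 of them were at both clips. Nfu_g_1_002766 had the most bursts of any member, 20 libraries. It reached 133.7 and 36.2 CPM in FC74 at 20 and 10 weeks, 115.5 and 34.1 CPM in FC77, 100.6 and 103.2 CPM in FC36, and 76.5 and 93.8 CPM in FC11. FC66 had 88.7 and 49.6 CPM, FC9 67.3 and 77.6 CPM, FC111 43.9 and 43.1 CPM, FC115 36.8 and 30.7 CPM and FC16 35.8 and 20.7 CPM. In all 9 matched fish with a burst both clips had it, and 199 of 228 libraries were under 1 CPM. The remaining bursts were in FC98 at 20 weeks (73.2 CPM) and FC102 at 10 weeks (47.3 CPM), both unmatched fish. These clips matched each other best in genes that keep their level within a fish.

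Nfu_g_1_003779 behaved in the same way in other fish. It had 38.8 CPM at 20 weeks and 26 CPM at 10 weeks in FC106, and 34.1 and 26.1 CPM in FC108, the 2 matched fish with a burst. In unmatched fish it had 32 and 29.7 CPM at the clips labelled FC100, 36.4 CPM in FC102 at 20 weeks and 25.9 CPM in FC98 at 10 weeks. For these a return in the same fish cannot be read from the labels, which were kept as given. In genes that keep their level within a fish, FC98 at 10 weeks and FC100 at 20 weeks matched each other best. So did FC100 at 10 weeks and FC102 at 20 weeks, so by these matches both clips of each pair were high. The highest value of Nfu_g_1_003779 in any other fish was 1.14 CPM, so the 8 libraries were set apart from all the rest. The single clips of FC98 and FC102 that were high are the complement of those that were high in Nfu_g_1_002766. All 5 fish have numbers over 84.

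**Figure D5:**
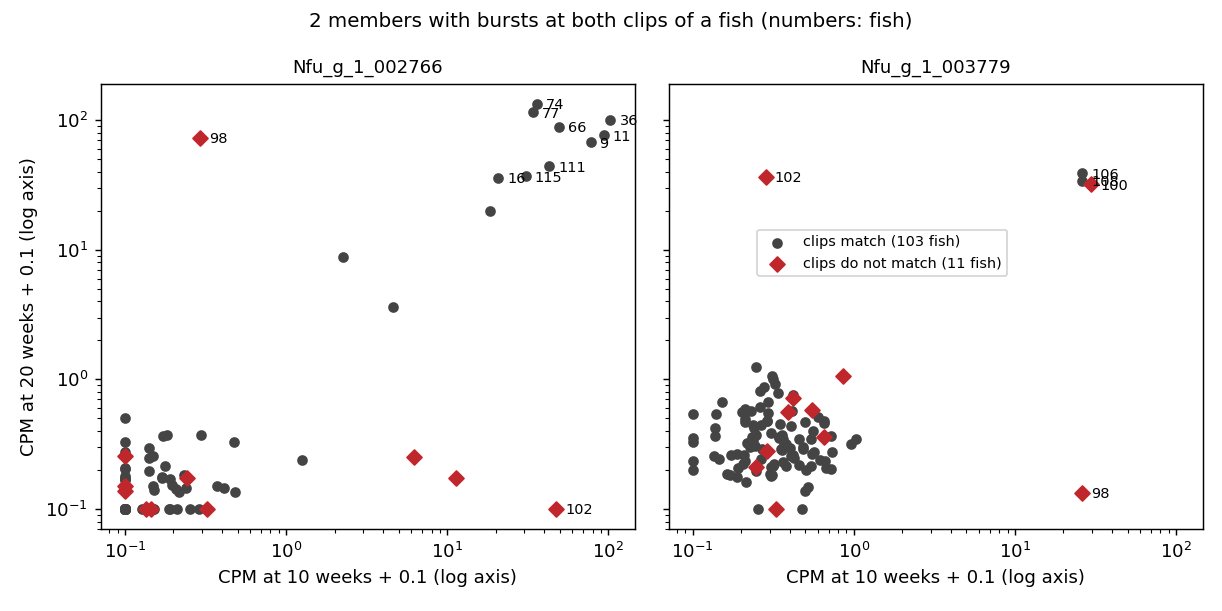
CPM with 0.1 added at 20 weeks (vertical, log axis) against 10 weeks (horizontal, log axis) for Nfu_g_1_002766 (left) and Nfu_g_1_003779 (right); each point is 1 fish, diamonds mark the 11 fish whose clips do not match and numbers mark fish with a burst. Matched fish with a burst at one clip have it at both; of the unmatched fish FC100 is high at both in the right panel, and FC98 and FC102 at one clip each.

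Other small groups joined members of single libraries. Nfu_g_1_023294 peaked with Nfu_g_1_018770 in FC61 at 20 weeks at 28 CPM, and Nfu_g_1_014412 was grouped with Nfu_g_1_013753 and reached 18.7 CPM in FC72 at 20 weeks. Nfu_g_1_015859 had 22.7 CPM in FC96 at 20 weeks and 19.9 CPM in FC9 at 10 weeks, and Nfu_g_1_006966 had 18.2 and 16.1 CPM in the same libraries. Nfu_g_1_011771 had 27.5 CPM in FC58 at 20 weeks and Nfu_g_1_020001 had 20.5 CPM in FC74 at 10 weeks, which are libraries that led the larger group.

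Less sharp cases had more libraries in between. Nfu_g_1_023479 had 40.8 and 29.3 CPM in FC2 at 20 and 10 weeks, 32.5 and 26.9 CPM in FC83 and 26.5 and 22.1 CPM in FC64, while 99 libraries lay between 1 and 20 CPM. Nfu_g_1_008060 had 32.7 CPM in FC2 at 10 weeks, 29.4 CPM at 20 weeks and 21.6 CPM in FC111 at 10 weeks. EPPK1, epiplakin, a linker of keratin filaments, had 28.6 and 19.4 CPM in FC9 at 20 and 10 weeks and 24.6 CPM in FC44 at 20 weeks. In its peak fish Nfu_g_1_019178 went the other way, with 217.0 CPM in FC3 at 20 weeks and 0.0773 CPM at 10 weeks. It had bursts in 14 fish. Of these 10 were matched fish, and 2 of the 10 had the burst at both clips. Nfu_g_1_019155 had 202.9 CPM in FC40 at 10 weeks and 0.185 CPM at 20 weeks, and its next values were 45 CPM in FC41 and 20.8 CPM in FC42, both at 20 weeks.

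The change between 10 and 20 weeks was tested with edgeR's quasi-likelihood test with the fish as a block and Benjamini-Hochberg adjustment over 17116 genes. Age was not part of the choice of members, but a peak enters the fit of its own age. Of the 150 members 42 did not pass the filter on low counts, which asks for about 0.434 CPM in at least 83 libraries, and 64 of the others changed, 48 rising and 16 falling. Over all genes tested 61.6% changed, 32% rising and 29.5% falling, so the share of changed members, 59.3%, was near the background and is not a result about them. Rises made up 44.4% and falls 14.8% of the tested members, and the median change was 0.22 on the log2 scale against 0.00 over all tested genes. With no filter, 88 of 150 members changed where 50.2% of 23195 genes did, 25.4% rising and 24.9% falling. With no block for the fish, edgeR called 54 members and 59.4% of the genes, and DESeq2 68 members and 60.7%.

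The larger group rose in 25 and fell in 4 of its 45 tested members, with a median log2 change of 0.29. Over all genes tested 32% rose and 29.5% fell. Members of this group were joined because they vary together, so they are not independent cases, and the peaks that chose them enter the fit. In the muscle group 9 of 26 members passed the filter, of which 1 rose and 1 fell. The other 17, MYLPF and TNNI2 among them, were too low for the filtered test, and their high libraries at 10 weeks are given above as a description. With no filter 1 of the 26 rose and 15 fell, with a median log2 change of -0.84, where 25.4% of 23195 genes rose and 24.9% fell. The 10-week peaks that chose these members enter that fit, so it is no independent support. ACTN2 had a log2 change of -0.20 (edgeR adjusted p = 0.0604).

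Among the members that rose, Nfu_g_1_006434 had the largest change. Its lowest, median and highest CPM were 0.0453, 0.987 and 8.97 at 10 weeks and 0.189, 3.03 and 236.2 at 20 weeks, and it was higher at 20 weeks in 95 of 114 fish, with a log2 change of 1.76 ± 0.17 (SE, edgeR adjusted p = 1.14e-16). Nfu_g_1_025977 went from a median of 0.756 to 3.28 CPM, with a log2 change of 1.67 ± 0.25 (SE, edgeR adjusted p = 1.18e-08), and was higher in 88 fish. C3 went from a median of 1.42 to 2.71 CPM, with a log2 change of 1.21 ± 0.11 (SE, edgeR adjusted p = 1.54e-17), and was higher in 98 fish. In each of these genes the ranges of the ages overlapped and the shift was in the bulk of the fish as well as in the bursts. Nfu_g_1_006079 and Nfu_g_1_022088 rose by 1.22 and 1.08 on the log2 scale, in 79 and 77 fish.

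Falls were led by Nfu_g_1_026130. Its lowest, median and highest CPM were 0.0689, 2.29 and 31.6 at 10 weeks and 0, 0.353 and 10.8 at 20 weeks. It was higher at 20 weeks in 7 of 114 fish, with a log2 change of -2.63 ± 0.17 (SE, edgeR adjusted p = 3.31e-28). Without the 11 unmatched fish limma gave a log2 change of -2.62 for it. SLC1A4, a carrier of neutral amino acids, went from a median of 0.840 to 0.356 CPM, with a log2 change of -1.45 ± 0.18 (SE, edgeR adjusted p = 6.16e-12), and its peak of 29.5 CPM lay in FC28 at 10 weeks. Both therefore had their bursts at the age with the higher median. Their medians at 20 weeks were under the 0.434 CPM of the filter, so they passed it more through the clips at 10 weeks. Nfu_g_1_012743 fell by 1.36, the GAPDH copy by 0.90 and Nfu_g_1_020188 by 0.77 on the log2 scale, though the peak of Nfu_g_1_012743, 20.4 CPM, was at 20 weeks in FC76.

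The runs of animal numbers were a possible batch, and the change was also taken within each by limma on the within-fish differences of log2 CPM. In fish 1 to 50, 32 of the tested members changed where 27.4% of all genes did, in fish 51 to 84, 60 changed where 71.8% did, and in fish with higher numbers 59 changed where 72.3% did. The difference between runs passed the test in 52 members, against 82.8% of all genes. Across every run 11 members rose and 5 fell. The same count over all genes was not taken, so these numbers are no result about the members. Nfu_g_1_026130 changed by -2.42, -2.85 and -2.62 and the GAPDH copy by -0.91, -0.76 and -0.73 in the 3 runs in that order.

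Symbols were given to a few further members with low peaks. SLC32A1, the vesicle carrier of GABA and glycine, reached 25.9 CPM in FC36 at 20 weeks and burst in 7 libraries, 6 of them at 20 weeks. UNC13A, a priming factor of synaptic vesicles, reached 24 CPM in FC35 at 20 weeks, and PTPRN, a protein of dense-core vesicles, 22.6 CPM in FC69 at 20 weeks. AGXT, an enzyme that removes glyoxylate, reached 21.1 CPM in FC55 and 20.9 CPM in FC68, both at 20 weeks. FHDC1, a formin, reached 24.1 CPM in FC74 at 10 weeks and had 12 CPM at 20 weeks. The peaks of these neural and enzyme genes lay at 20 weeks except that of FHDC1.

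Age at death is known for all fish but 1 and had a median of 310 days. FC74 died at 167 days, FC40 at 188, FC61 at 185, FC76 at 280 and FC58 at 191. FC69 died at 201 and FC34 at 145 days. These fish were picked by the bursts described here, so their ages are a description. FC74, FC61, FC76, FC58 and FC69 belong to fish 51 to 84, while the median is over all runs, so no age was set against its own run. Besides FC40, the fish whose clips were high in the muscle group died at 404 (FC17), 310 (FC44), 303 (FC31), 298 (FC41), 272 (FC57), 199 (FC55) and 158 days (FC82). FC89, another fish in which the larger group was high, died at 425 days. FC43 was high in it at 10 weeks but is an unmatched fish, so the 387 days of its label may not belong to that clip. In genes that keep their level within a fish, its 10-week clip matched FC74 at 20 weeks best. Its 20-week clip matched FC76 at 10 weeks best, and FC74 and FC76 are matched fish. Why the clips of FC43 did not match was not tested.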

How the data were processed

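Fin clips of 114 fish were sequenced at 10 and 20 weeks (TruSeq RNA v2, a kit without strand marking). The authors deposited raw counts of reads per gene. TopHat2 2.1.0, featureCounts 1.5.0 and bcl2fastq 1.8.4 are named in the submitters' processing notes; the build and annotation used for the fin clips, not given in the sources used here, were not needed. All 228 columns matched a sample by description. Symbols came from the study's supplementary tables, which name 5613 genes; 1 marker is not reported here. Members and lists were chosen with earlier results of these data known, and 5 of 14 lists were added after values were seen. Named with values were the 20 members with the highest peak, the 3 highest of each group, the 5 largest rises and falls with age and members with a symbol; a few more were named after their values were seen. Pairs of clips come from the same fish per the labels, so the fish was a block. Age was tested with edgeR 4.0.16 (TMM, dispersion trend from every 20th gene) and limma 3.58.1 (prior count 1), with DESeq2 1.42.0 as an alternative, in R 4.3.3; the code was tested on simulated data.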

Additional observations from a re-analysis of the deposited data

Results flagged for a closer look

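The change between 10 and 20 weeks differed between the 3 runs of animal numbers in 7 of the 10 members named for their change (limma, adjusted over all genes tested); over all genes 82.8% differed. Mean log2 changes are given for fish 1 to 50, 51 to 84 and over 84 in that order. Nfu_g_1_006079 changed by 0.29, 3.23 and 0.19 (limma adjusted p of the difference = 5.21e-20). Nfu_g_1_022088 changed by 0.09, 3.23 and 0.28 (limma adjusted p = 1.9e-12). Nfu_g_1_006434 changed by 1.54, 3.10 and 0.54 (limma adjusted p = 6.99e-10). Nfu_g_1_025977 changed by 3.08, 1.25 and 0.09 (limma adjusted p = 8.49e-07). Nfu_g_1_012743 changed by -1.15, -2.27 and -1.02 (limma adjusted p = 9.75e-05), C3 (Nfu_g_1_007235) by 0.74, 1.82 and 1.21 (limma adjusted p = 9.74e-05) and SLC1A4 (Nfu_g_1_019533) by -1.36, -2.27 and -0.64 (limma adjusted p = 0.000529). The direction was the same in each run for all 7, but some of these changes were not called within the run. These were Nfu_g_1_006079 (limma adjusted p = 0.27 and 0.32) and Nfu_g_1_022088 (0.79 and 0.36) in fish 1 to 50 and over 84. Nfu_g_1_025977 was not called in fish over 84 (limma adjusted p = 0.83). What sets the runs apart was not tested.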

How the results depend on the processing

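With totals scaled by TMM, 139 of 150 members were the same, and with a median limit of 1 CPM 88 were. Bursts numbered 967 at 10 CPM, 80 at 50 CPM (47.5% of them at 20 weeks) and 351 with TMM totals. Leaving out the 4 fish with 10 or more peaks, chosen after seeing the data, left 223 bursts with 63.2% at 20 weeks and a recurrence of 30.8%. Recurrence was 28% when the other clip had to be the highest of its age and 61.3% when it had to be among the 10 highest. The grouping held 67 members in groups of 5 or more at a correlation of 0.7 and more at 0.3. The count of members changed with age was 32 in fish 1 to 50 alone and 54 to 88 under every other setting. With no replicate block edgeR called 54 members and DESeq2 68, and the block changed no direction among the 10 named members. Of their 100 values under alternatives 95 kept their call and 5 lost it, all within 1 run, and none turned. Depth was not limiting for peaks, but 42 members were too low for the filtered test, and a member's single highest library has no replicate. Whether a burst would return in a second library of the same clip was not measured.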
